A study of Mus musculus with 12 samples.

Results

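A small set of miRNAs is made mainly in blood-derived immune cells or is switched on when such cells are activated, and the arrays of this study show how much of them the mouse retina and sclera held with and without form deprivation. The members were all mouse array names of the mmu-miR-223, mmu-miR-142, mmu-miR-150, mmu-miR-155, mmu-miR-146a and mmu-miR-146b families, both arms included, which gave 9 of 696 names. Of these, 7 were detected on at least 1 of the 12 arrays (443 of the 696 names were), and 4 of them, mmu-miR-223-3p, mmu-miR-146a-5p, mmu-miR-142-3p and mmu-miR-150-5p, on all 12 (246 of 696). mmu-miR-150-3p and mmu-miR-146b-3p were detected on no array and could not be compared. mmu-miR-146a-5p, mmu-miR-223-3p and mmu-miR-142-3p were lower in the retina than in the sclera, in control and in myopic eyes alike. mmu-miR-155-5p was called lower as well, but was near the detection limit in the retina and lost this call in control eyes under several settings. By limma with quantile-normalized values, no member passed the test for a change after form deprivation in either tissue.

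The samples came from C57BL/6J mice with a frosted plastic diffuser sutured over the right eye at postnatal day 24, which blurs the retinal image, and were collected after 10 days, at day 34. The untreated left eyes of the same animals served as the control, so that the control eyes shared the anesthesia and the systemic exposure. Retina and sclera were dissected after the lens and surrounding tissue were removed, and tissue of 3 eyes was pooled for each RNA sample. The 4 groups, control retina, myopic retina, control sclera and myopic sclera, had 3 pools each, with 1 single-color array per pool. Whether blood was flushed from the eyes is not given in the sources used here, and in pooled whole tissue fewer cells of a type and less RNA per cell cannot be told apart.

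A mature miRNA guides the silencing complex to messenger RNAs that pair with its seed, the bases near its 5′ end, and lowers their translation and stability. miR-223 is a myeloid miRNA of neutrophils, monocytes and macrophages, miR-142 is made by nearly all blood-derived cells, and miR-150 marks mature lymphocytes. miR-155 rises in activated macrophages and lymphocytes. miR-146a is induced by NF-κB signaling and dampens it by targeting signaling proteins downstream of Toll-like receptors, and miR-146b shares its seed. In the eye such cells are microglia in the retina and macrophages, mast cells and blood cells in the sclera and its vessels.

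The mature sequences of the members detected on the arrays are shown with the seed (bases 2 to 8) in capitals, because the 2 miRNAs that share a seed, mmu-miR-146a-5p and mmu-miR-146b-5p, differed in their tissue values. They were taken from RefSeq (GRCm38.p6), which matched 8 of the 9 names, with the arms of mmu-miR-142 listed there as mmu-miR-142a. mmu-miR-150-5p is named only.
mmu-miR-223-3p: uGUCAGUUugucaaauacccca
mmu-miR-142-3p: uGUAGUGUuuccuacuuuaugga
mmu-miR-142-5p: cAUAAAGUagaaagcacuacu
mmu-miR-146a-5p: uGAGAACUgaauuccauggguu
mmu-miR-146b-5p: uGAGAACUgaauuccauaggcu
mmu-miR-155-5p: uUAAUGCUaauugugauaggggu

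In this annotation mmu-miR-223-3p lies at chrX:96242884-96242905 (plus strand) within the annotated gene F630028O10Rik, and mmu-miR-155-5p at chr16:84714143-84714165 (plus strand) within its host transcript gene Mir155hg. Both arms of mmu-miR-142 come from 1 hairpin, at chr11:87756864-87756927 (plus strand). mmu-miR-146a-5p lies at chr11:43374435-43374456 (minus strand), and mmu-miR-146b-5p at chr19:46342790-46342811 (plus strand), so that the shared seed comes from different chromosomes. Counted from 1 at the 5′ end, the 22 bases of mmu-miR-146a-5p and mmu-miR-146b-5p differ at 2 positions, G18A and U21C, with the base of mmu-miR-146a-5p first.

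On these arrays each member is read by at least 2 short probes, complementary to the mature sequence for the 8 matched names and printed as repeated spots. The scanner software takes a probe as detected when its signal exceeds 3 times its error, sums such probes as the total gene signal (a fluorescence intensity), and lists a miRNA with no detected probe at 0.1. Total gene signals are given first as the scanner wrote them. For the tests, signals were raised to at least 0.5, then quantile normalized across all 12 arrays and put on a log2 scale, so that an undetected miRNA stands at -1. All 4 groups were fitted together with limma, p-values were adjusted over the 443 miRNAs by the Benjamini-Hochberg procedure, and a difference was called when it reached 2-fold with an adjusted p-value below 0.05. Values from a second scaling, in which each array was divided by the 75th percentile of those miRNAs that all arrays detected, are given where they changed a call or moved a tissue difference by over 1.5 times.

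The arrays detected 353 to 401 miRNAs in the retina and 274 to 317 in the sclera, with no saturated miRNA spot. Control sclera 3 was the dimmest array, with a 75th percentile 0.359 times the geometric mean of all arrays against 0.567 to 1.84 for the others. Among miRNAs chosen as tissue markers, all 8 of retinal neurons were called higher in the control retina than in the control sclera, and 6 of 7 tested of mesenchymal cells and 4 of 4 of muscle were called lower.

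**Figure D1:**
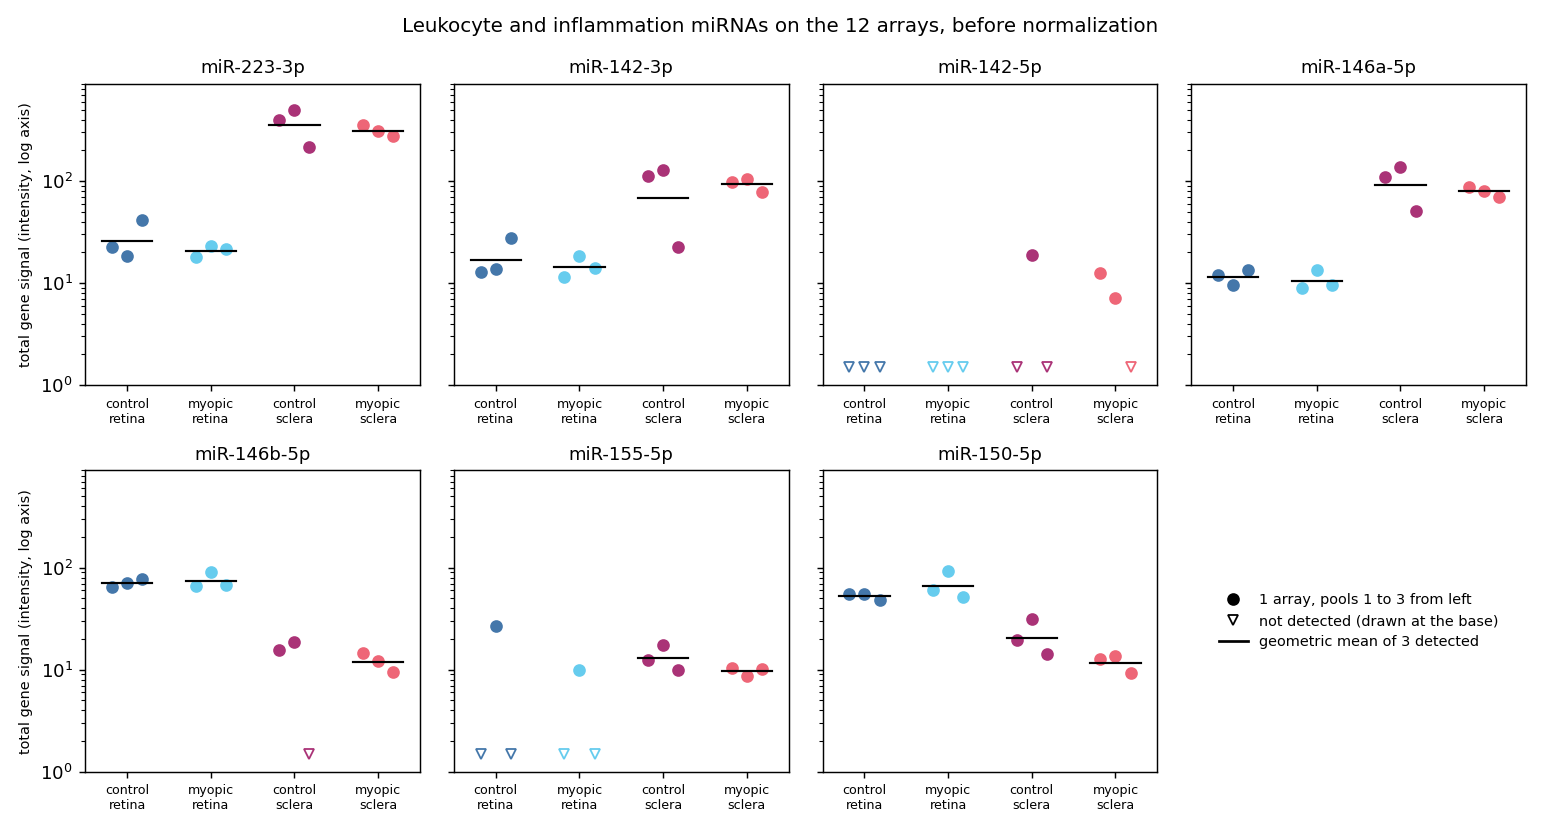
Total gene signal (intensity before normalization, log axis) of the 7 detected miRNAs on the 12 arrays. Filled points are single arrays (pools 1 to 3 from left to right), open triangles at the base are arrays without detection, and lines are geometric means of groups with 3 detections. mmu-miR-146a-5p, mmu-miR-223-3p and mmu-miR-142-3p lie lower in the retina than in the sclera except that mmu-miR-142-3p on control retina 3 (27.9) exceeds control sclera 3 (22.4), and mmu-miR-146b-5p and mmu-miR-150-5p lie higher in the retina before normalization.

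Of the 7 members tested, 4 were called lower in the control retina than in the control sclera and 0 were called higher. Over all miRNAs tested, 23% were called lower and 27.5% higher in this comparison. In the myopic eyes the same 4 members were called lower and 0 higher (over all miRNAs, 26.4% and 32.5%). These comparisons share no arrays, but they used both eyes of the same mice, and all arrays were normalized and fitted together, so that they are not independent. The median log2 difference of the 7 members was -3.40 in control eyes and -5.21 in myopic eyes, beside 0.30 and 0.36 over all 443 miRNAs. With 75th percentile scaling the medians of the 7 members were -3.05 and -3.72, so that the gap between control and myopic eyes depended on the scaling.

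mmu-miR-223-3p, the myeloid member, had total gene signals of 22.7, 18.3 and 41.6 in the control retina and of 394, 501 and 217 in the control sclera. In the myopic eyes they were 17.9, 23.3 and 21.4 in the retina and 354, 306 and 276 in the sclera. Every sclera array was above every retina array, and control retina 3 was the highest of the retina. The quantile-normalized level was 4.38 ± 0.93 (log2, SD, n = 3) in the control retina and 9.22 ± 0.20 in the control sclera, which is 28.7-fold higher in the sclera (95% interval 14.6 to 56.3, limma, adjusted p = 7.09e-06). In myopic eyes the sclera was 70.6-fold higher (95% interval 36.0 to 138.5, limma, adjusted p = 1.08e-06), and 34.1-fold with 75th percentile scaling. Both probes of mmu-miR-223-3p passed the detection limit on all 12 arrays, and their retina minus sclera differences after 75th percentile scaling were -4.06 for the probe of 20 bases and -5.38 for that of 21 bases.

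mmu-miR-142-3p, made across blood lineages, had signals of 12.7, 13.7 and 27.9 in the control retina and of 111, 127 and 22.4 in the control sclera. In the myopic retina they were 11.5, 18.3 and 14.0, and in the myopic sclera 98.8, 105 and 78.5. The control groups overlapped before normalization, where control sclera 3 (22.4) read below control retina 3 (27.9), but not after it. The difference between control retina and control sclera was -3.40 (log2, standard error 0.52, limma, adjusted p = 2.91e-04), a 10.6-fold higher level in the sclera. Between myopic retina and myopic sclera it was -5.21 (adjusted p = 1.29e-05), or 37.1-fold, and 14.9-fold with 75th percentile scaling.

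The signal of 27.9 on control retina 3 holds a second probe that counted on no other retina array. The probe of 22 bases passed 3 errors on 1 of 6 retina arrays, control retina 3 (signal 9.58), while on the other 5 it read 5.94 to 8.63, at 2.72 to 2.97 times its error, and was not added. The probe of 23 bases alone read 18.3 on control retina 3, as on myopic retina 2. With the probe signals summed whether detected or not, and 75th percentile scaling, the difference between control retina and control sclera was -2.61 (log2, standard error 0.26).

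mmu-miR-142-5p, the other arm of this hairpin, was detected on none of the 6 retina arrays and on 3 of 6 sclera arrays, with a signal of 18.8 on control sclera 2, 12.5 on myopic sclera 1 and 7.16 on myopic sclera 2. Its fitted differences of -1.99 in control eyes (limma, adjusted p = 0.351) and -3.80 in myopic eyes (adjusted p = 0.0894, and -3.14 with 75th percentile scaling) were not called, and their size is set by the floor at 0.5. Against the detection limit of the myopic retina arrays, the level in the myopic sclera was at least 1.82-fold higher, with 2 of 3 sclera arrays detected. With probe signals summed without the detection rule and 75th percentile scaling, mmu-miR-142-5p was called in both comparisons, at -4.69 in control eyes (adjusted p = 2.75e-05) and -5.06 in myopic eyes (adjusted p = 1.41e-05). The floor entered these sizes as well, since the summed retina probes read -2.14 to 2.42 and scaled values below 0.5 were set to 0.5. mmu-miR-142-5p was tested only through its sclera detections, so that these calls add no separate support.

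**Figure D2:**
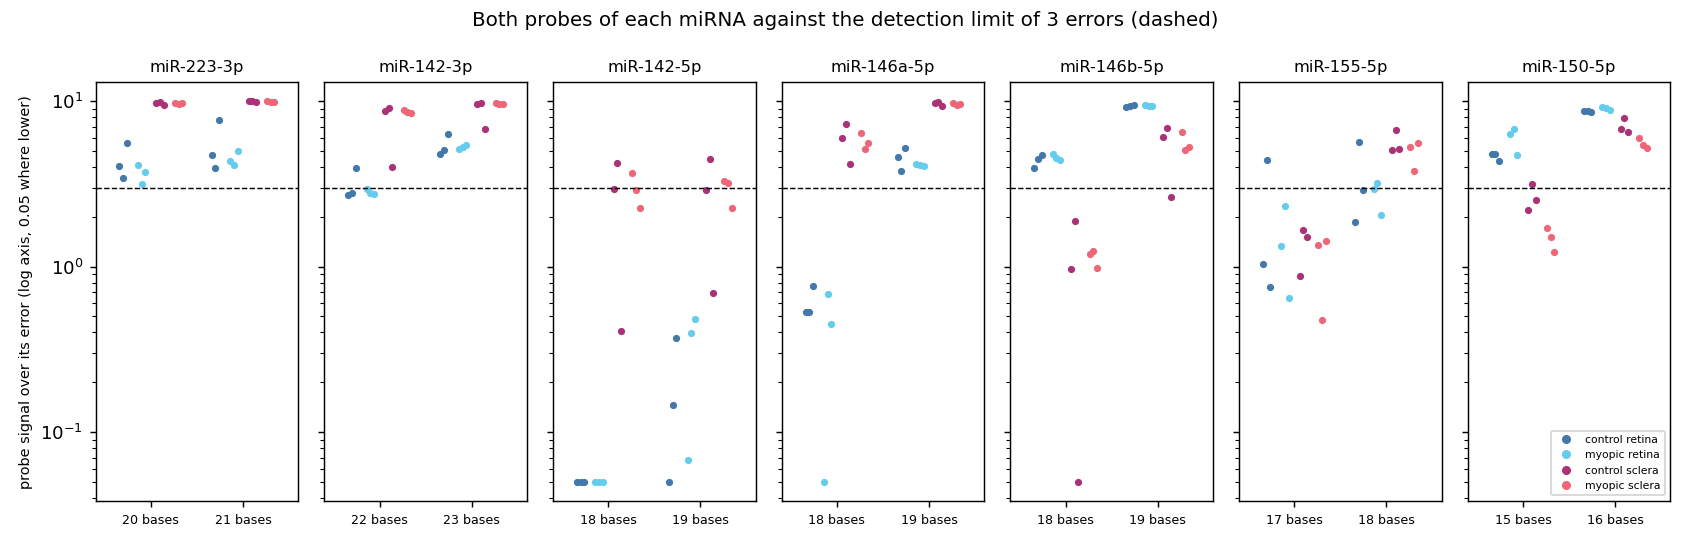
Signal of the probes of each detected miRNA divided by its error (log axis, values below 0.05 drawn at 0.05) for the 12 arrays, with 1 column of points for each probe, named by its length. Points above the dashed line at 3 errors enter the total gene signal. The 22-base probe of mmu-miR-142-3p crosses the line on 1 retina array, and the 18-base probes of mmu-miR-146a-5p and mmu-miR-146b-5p lie on opposite sides of it in retina and sclera.

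mmu-miR-146a-5p and mmu-miR-146b-5p share the seed GAGAACU, and the former was called lower in the retina while the latter was not called in either tissue comparison. The signals of mmu-miR-146a-5p were 12.1, 9.48 and 13.5 in the control retina, and 108, 137 and 51.1 in the control sclera. In myopic eyes they were 8.84, 13.3 and 9.61 in the retina and 88.2, 80.3 and 70.2 in the sclera. Every retina array was below every sclera array. The difference was -4.28 in control eyes (log2, standard error 0.36, 95% interval -5.10 to -3.46, limma, adjusted p = 5.11e-06), which is 19.4-fold higher in the sclera. In myopic eyes it was -5.53 (adjusted p = 6.84e-07), or 46.3-fold, and 17.4-fold with 75th percentile scaling.

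mmu-miR-146b-5p had signals of 65.0, 71.5 and 77.4 in the control retina and of 65.9, 91.7 and 67.6 in the myopic retina. In the control sclera they were 15.8 and 18.7 on arrays 1 and 2, with no detection on array 3, and in the myopic sclera 14.5, 12.3 and 9.48. All retina arrays were brighter than all sclera arrays before normalization. After quantile normalization the difference was 2.80 in control eyes (log2, standard error 1.33, limma, adjusted p = 0.0931) and 0.11 in myopic eyes (adjusted p = 0.953), neither of which was called. The undetected array carries the first value, since control sclera 3 stood at -1 with its longer probe at 2.65 times its error, and without this array the difference was 0.81 (adjusted p = 0.0162, below the 2-fold limit). The control value was called higher in the retina under 6 of 26 settings, among them 75th percentile scaling (3.20, adjusted p = 0.0329), a floor set per array at its dimmest detected miRNA (1.89, adjusted p = 0.0477) and array weights (1.06, adjusted p = 0.018). Scaled to the 75th percentile with probe signals summed without the detection rule, mmu-miR-146b-5p was called higher in the retina in control eyes (1.34, standard error 0.21, adjusted p = 3.09e-04) and in myopic eyes (1.30, adjusted p = 3.48e-04). Its direction in myopic eyes depended on the scaling, at 1.45 with 75th percentile scaling of the total gene signals (adjusted p = 0.262) and -0.01 after quantile normalization without myopic retina 3.

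The probes of these miRNAs are nearly alike. The 18-base probes of both miRNAs are shown 5′ to 3′ with the 2 differing bases in capitals.
mmu-miR-146a-5p probe: aAccCatggaattcagtt
mmu-miR-146b-5p probe: aGccTatggaattcagtt
The mmu-miR-146a-5p probe passed 3 errors on 6 of 6 sclera and 0 of 6 retina arrays, and the mmu-miR-146b-5p probe on 0 of 6 sclera and 6 of 6 retina arrays. Between the tissues (retina minus sclera, 75th percentile scaling) the probes of 18 bases differed by -4.48 for mmu-miR-146a-5p and 1.84 for mmu-miR-146b-5p, and those of 19 bases by -3.83 and 1.30. How far each probe also binds the other miRNA was not tested.

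mmu-miR-155-5p, the member linked to activation, was detected on all 6 sclera arrays, with signals of 12.3, 17.6 and 9.91 in control and of 10.5, 8.70 and 10.3 in myopic eyes. In the retina it was detected only in pool 2, with 27.2 in the control and 9.98 in the myopic eyes. Control retina 2 was thus brighter than any sclera array before normalization. The fitted differences of -4.20 in control eyes (log2, standard error 1.33, limma, adjusted p = 0.0222) and -5.24 in myopic eyes (adjusted p = 0.00583, 37.9-fold, and 13.2-fold with 75th percentile scaling) were called, but 2 of the 3 retina arrays in each group lay at the floor, which sets their size. Without the detection rule and with 75th percentile scaling, the differences were -1.43 (adjusted p = 0.036) and -1.38 (adjusted p = 0.0368). The call in control eyes held under 19 of 26 settings. It was lost with 75th percentile scaling of the total gene signals (-3.47, adjusted p = 0.0528), with array weights (-0.37, adjusted p = 0.708), with only the groups compared in the fit (adjusted p = 0.123), with normexp background correction (-0.09, adjusted p = 0.161), and when control retina 1, control retina 3 or control sclera 3 was left out (adjusted p of 0.0751, 0.0777 and 0.0633).

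mmu-miR-150-5p, the lymphocyte member, did not share the pattern of mmu-miR-223-3p and mmu-miR-142-3p. Its signals were 55.0, 55.3 and 47.8 in the control retina and 60.5, 92.9 and 51.9 in the myopic retina. In the sclera they were 19.4, 31.8 and 14.2 in control and 12.7, 13.7 and 9.39 in myopic eyes, all below the retina before normalization. After quantile normalization the difference was -0.28 (log2, 95% interval -0.80 to 0.25, limma, adjusted p = 0.315) in control eyes and 0.01 (95% interval -0.52 to 0.54, adjusted p = 0.99) in myopic eyes. With 75th percentile scaling it was 0.31 (adjusted p = 0.221) and 1.30 (adjusted p = 4.00e-04), so that mmu-miR-150-5p was called higher in the myopic retina than in the myopic sclera under percentile scaling only, of these 2. Over the miRNAs detected on all arrays compared, the median tissue difference in myopic eyes itself moved from -0.30 to 0.46 between these scalings, and in control eyes from -0.23 to 0.14.

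**Figure D3:**
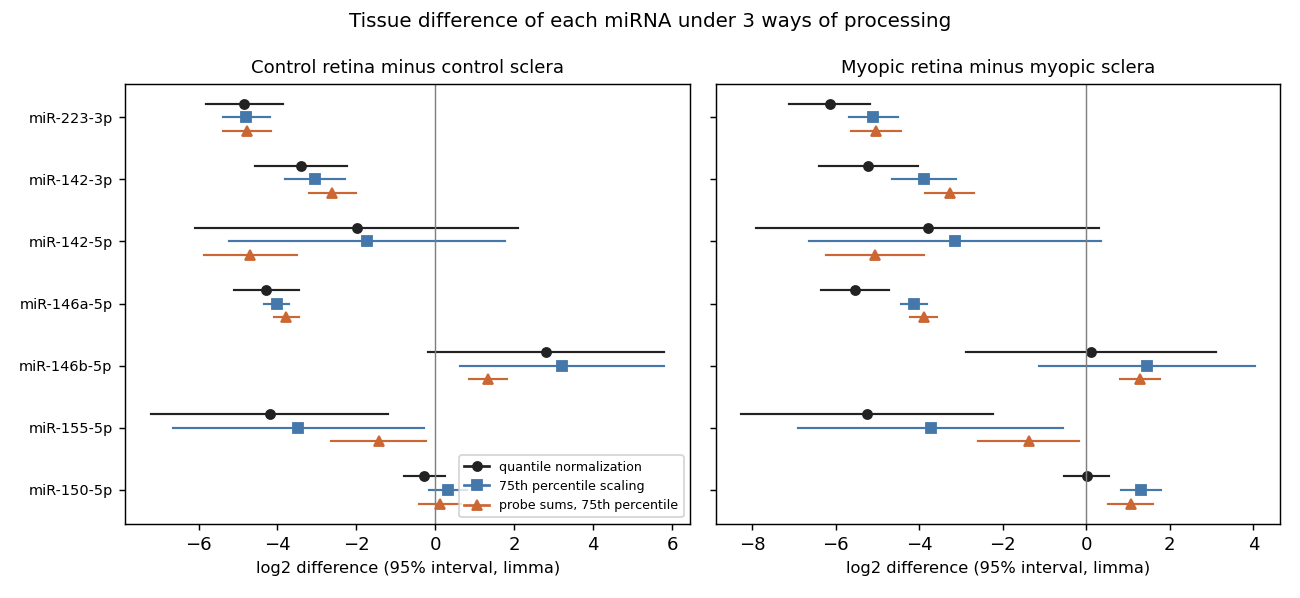
Retina minus sclera difference (log2) of the 7 miRNAs in control eyes (left) and myopic eyes (right), with 95% intervals from limma, for quantile normalization (black circles), 75th percentile scaling (blue squares) and probe signals summed without a detection rule and scaled to the 75th percentile (orange triangles). mmu-miR-223-3p, mmu-miR-142-3p and mmu-miR-146a-5p lie below 0 under all 3, from -2.61 to -6.14, while mmu-miR-150-5p in control eyes changes side (-0.28, 0.31 and 0.11) and in myopic eyes lies at 0.01 with quantile normalization and above 1 with the others.

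Whether form deprivation changed these miRNAs was asked by comparing myopic with control eyes within each tissue. In the retina 0 of 7 members were called by limma (0.226% of all 443 miRNAs were). At an unadjusted p-value under 0.05, 3 members were lower in the myopic retina and 0 higher, while 15.3% of all miRNAs were lower at that level. They were mmu-miR-146a-5p (-1.35, standard error 0.36, adjusted p = 0.134), mmu-miR-223-3p (-1.29, standard error 0.43, adjusted p = 0.134) and mmu-miR-142-3p (-1.38, standard error 0.52, adjusted p = 0.151), each on the log2 scale from limma and lower in 3 of 3 pairs of pools. The groups did not overlap for 1 of the 7, mmu-miR-146a-5p, and for 14.4% of all miRNAs. Its quantile-normalized levels were 2.71, 3.18 and 4.12 in the control retina and 1.52, 1.82 and 2.63 in the myopic retina.

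These 3 values depended on the scaling. With 75th percentile scaling they became -0.26 for mmu-miR-146a-5p, -0.43 for mmu-miR-223-3p and -0.35 for mmu-miR-142-3p (adjusted p of 0.499, 0.654 and 0.987), and the groups overlapped for all 3. Quantile normalization moved dim miRNAs of the myopic retina down as a whole: the median change of the miRNAs with a mean level from 2 to 3 on the log2 scale was -1.17, from 3 to 4 it was -0.85 and from 5 to 6 it was -0.54, while the corresponding medians with 75th percentile scaling were -0.06, 0.13 and 0.00. Over all 329 miRNAs detected on the 6 retina arrays the median change was -0.22 and -0.02, respectively. mmu-miR-146a-5p belongs to the first of these ranges and mmu-miR-142-3p and mmu-miR-223-3p to the second, so that relative to the median of like level they differed by less than their fitted changes. The 10th percentile of the second range was -1.22 with quantile normalization and -0.22 with 75th percentile scaling. mmu-miR-142-3p (-1.38 and -0.35) and mmu-miR-223-3p (-1.29 and -0.43) lay below it under both. mmu-miR-146a-5p (-1.35 and -0.257) lay just above that of the first range (-1.40 and -0.259). For mmu-miR-150-5p the change was -0.39 (adjusted p = 0.318) with quantile normalization and 0.23 with 75th percentile scaling, and for mmu-miR-146b-5p -0.57 (adjusted p = 0.888) and -0.05. The standard error of mmu-miR-146b-5p, 1.33, came from the shared fit, in which control sclera 3 stood at -1. Without that sclera array the retina change stayed at -0.57, with a standard error of 0.21 (limma, adjusted p = 0.141). mmu-miR-155-5p, at -1.28 (adjusted p = 0.592), rested on pool 2, and mmu-miR-142-5p had no detection on any of the 6 arrays and no fold.

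**Figure D4:**
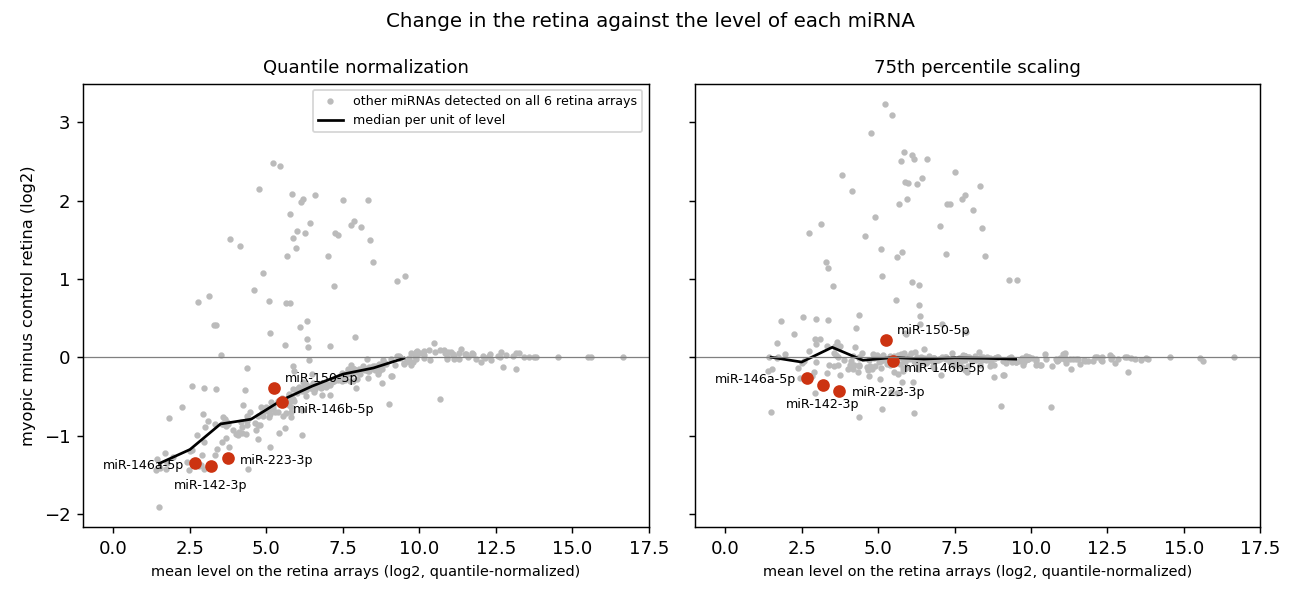
Myopic minus control retina (log2) against the mean level on the 6 retina arrays (log2, quantile-normalized) for the 329 miRNAs detected on all of them, with quantile normalization (left) and 75th percentile scaling (right). Red points are the 5 members detected on all 6 arrays, grey points the other miRNAs, and the line is the median per unit of level. On the left mmu-miR-146a-5p, mmu-miR-142-3p and mmu-miR-223-3p lie at -1.29 to -1.38 where the line is between -1.17 and -0.85, on the right they lie at -0.26 to -0.43, and mmu-miR-150-5p changes from -0.39 to 0.23.

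The call also depended on single arrays. Without control retina 1, the array lowest in these 3 miRNAs among the normalized controls, limma called mmu-miR-142-3p (-1.93, adjusted p = 0.00816), mmu-miR-146a-5p (-1.66, adjusted p = 0.00574) and mmu-miR-223-3p (-1.70, adjusted p = 0.00897) lower in the myopic retina. Over all 443 miRNAs, 122 were then called, with 12.9% of the 443 lower. Leaving out myopic retina 3 gave a call for mmu-miR-146a-5p (-1.67, adjusted p = 0.0409), beside 1.13% of all miRNAs called lower. Control retina 3, the highest retina array for mmu-miR-223-3p and mmu-miR-142-3p, also had the highest summed total gene signal of the mesenchymal marker miRNAs among the retina arrays (542 against 189 to 499) and of the surface epithelium markers (5368 against 106 to 1493). Among these markers 5 of 8 mesenchymal miRNAs were detected on this array, and their part in the result was not tested. Without control retina 3 the changes were -0.81 for mmu-miR-142-3p, -0.95 for mmu-miR-146a-5p and -0.79 for mmu-miR-223-3p.

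In the sclera limma called 0 of 7 members and 0% of all miRNAs between myopic and control eyes. At an unadjusted p-value under 0.05 there was 1 member, mmu-miR-150-5p, beside 2.93% of all miRNAs. Its quantile-normalized levels were 5.30, 5.77 and 6.12 in the control and 4.86, 5.28 and 5.04 in the myopic sclera, a change of -0.67 (log2, standard error 0.23, adjusted p = 1, limma) that was lower in 3 of 3 pairs. With 75th percentile scaling the change was -0.76 (adjusted p = 0.794), and the groups did not overlap under either scaling, although myopic sclera 2 (5.28) lay just below control sclera 1 (5.30) after quantile normalization. Without control sclera 3, the highest array for mmu-miR-150-5p, the change was -0.47 (standard error 0.22).

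The groups did not overlap in the sclera for 3 of 7 members after quantile normalization (5.42% of all miRNAs). Besides mmu-miR-150-5p these were mmu-miR-142-3p and mmu-miR-146b-5p, whose values control sclera 3 carried. With 75th percentile scaling the groups overlapped for mmu-miR-142-3p and mmu-miR-146b-5p. mmu-miR-142-3p stood at 7.58, 7.61 and 6.65 in the control sclera and at 7.72, 7.74 and 7.66 in the myopic sclera, a change of 0.43 (log2, standard error 0.52, adjusted p = 1) that fell to 0.11 without control sclera 3. mmu-miR-146b-5p changed by 2.13 (standard error 1.33, adjusted p = 1) with the undetected control sclera 3 and by 0.14 without it. On this array mmu-miR-142-3p was the lowest of the 6 sclera arrays after scaling, at 5.96 against 6.93 to 7.27 (log2, 75th percentile), whereas mmu-miR-223-3p (9.24 against 8.81 to 8.93), mmu-miR-150-5p (5.30 against 4.02 to 4.93) and mmu-miR-155-5p (4.79 against 3.68 to 4.18) were the highest. The summed signal of the retinal neuron markers, scaled likewise, was 2346 on control sclera 3 and 5167 to 13177 on the other sclera arrays, and its part in these values was not tested.

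Of the 7 members, mmu-miR-223-3p and mmu-miR-146a-5p had the fitted changes nearest 0 in the sclera. mmu-miR-223-3p changed by 0.01 (log2, 95% interval -0.96 to 0.98), with a sign that depended on the setting (-0.13 with 75th percentile scaling). mmu-miR-146a-5p changed by -0.10 (95% interval -0.92 to 0.73), and mmu-miR-155-5p by -0.24 (95% interval -3.25 to 2.77). The intervals leave room for changes close to 2-fold in mmu-miR-223-3p and mmu-miR-146a-5p and for larger ones in mmu-miR-155-5p.

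The difference between the response of the retina and that of the sclera was tested as an interaction, and limma called 0 of 7 members (0.226% of all miRNAs). At an unadjusted p-value under 0.05 there were 2 members, beside 8.13% of all miRNAs. They were mmu-miR-142-3p (-1.81, standard error 0.74, adjusted p = 0.38) and mmu-miR-146a-5p (-1.25, standard error 0.51, adjusted p = 0.38). With 75th percentile scaling these were -0.84 and -0.10. Without control retina 1, mmu-miR-142-3p (-2.36, adjusted p = 0.0177), mmu-miR-146a-5p (-1.56, adjusted p = 0.0394) and mmu-miR-223-3p (-1.71, adjusted p = 0.0429) were called, beside 11.5% of all miRNAs called in this direction.

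Further miRNAs linked to leukocytes or inflammation were called in both directions between the tissues. Of 15 names of 10 further families, 12 were detected and tested, and 6 were called higher and 2 lower in the control retina than in the control sclera, with a median difference of 1.40 (2.00 with 75th percentile scaling), beside the 27.5% higher and 23% lower of all miRNAs. The higher ones with the largest differences were mmu-miR-139-3p, mmu-miR-132-3p, which neurons also make in response to activity (3.60, limma, adjusted p = 1.08e-07), and mmu-miR-181a-5p, abundant in lymphoid cells and in retinal neurons (3.13, adjusted p = 2.07e-09). mmu-miR-139-3p was detected on no control sclera array, so that the floor sets its fitted difference of 4.06 (adjusted p = 0.0158), and against the detection limit it was at least 1.04-fold higher in the retina. The lower ones were mmu-miR-222-3p (-3.42, adjusted p = 0.0239, with 1 of 3 control retina arrays at the floor) and mmu-miR-221-3p (-2.21, adjusted p = 3.35e-04), a pair from 1 cluster with a shared seed. In myopic eyes 6 of the 12 were called higher and 2 lower (over all miRNAs, 32.5% and 26.4%). mmu-miR-139-3p was not among them (0.98, adjusted p = 0.472), and mmu-miR-342-5p was (3.42, adjusted p = 0.02). By limma, 0 of the 12 were called in either tissue after form deprivation.

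Markers of other cells in these tissues were set beside the members. mmu-miR-451, an erythrocyte miRNA, was lower in the retina (-2.04 in control eyes, log2, limma, adjusted p = 4.76e-06, and -2.00 in myopic eyes, adjusted p = 4.28e-06), and was the only 1 of the 2 erythroid names called. Both names of the endothelial mmu-miR-126 were called lower in the retina in both comparisons, with medians of -2.00 and -2.34. The summed signal of the mesenchymal list before scaling was 189 to 542 over the retina arrays and 7838 to 23774 over the sclera arrays. That of the erythroid list was 257 to 567 and 286 to 827 before scaling, and 186 to 308 and 792 to 1078 with 75th percentile scaling. Of the remaining lists, 1 of 2 pigment cell names was called higher and 2 of 3 tested surface epithelium names lower in the retina in both comparisons. The part of blood, vessels or adhering sclera in the tissue differences of the members was not tested.

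Within the groups, the members varied together to different degrees. Over the 12 arrays, the deviations from the group means (quantile-normalized log2) correlated by r = 0.955 for mmu-miR-223-3p and mmu-miR-146a-5p, by 0.863 for mmu-miR-142-3p and mmu-miR-146a-5p, and by 0.815 for mmu-miR-142-3p and mmu-miR-223-3p, while mmu-miR-150-5p had r of 0.214 to 0.542 with these. With 75th percentile scaling these were 0.795, 0.256 and 0.398, and mmu-miR-150-5p had r of -0.60 to 0.182, so that the values depended on the scaling that the arrays share. After quantile normalization, among 242 other miRNAs detected on all arrays, those closest to mmu-miR-223-3p were mmu-miR-542-5p (r = 0.969) and mmu-miR-23a-3p (r = 0.956), which were also closest to mmu-miR-146a-5p (0.937 and 0.956). The closest to mmu-miR-142-3p were mmu-miR-143-3p (0.980) and mmu-miR-322-5p (0.962), and the closest to mmu-miR-150-5p were mmu-miR-1904 (0.871) and mmu-miR-139-5p (0.839). Correlations above 0.8 were found for 11.2% of the 242 with mmu-miR-223-3p, 10.7% with mmu-miR-142-3p, 7.44% with mmu-miR-146a-5p and 2.89% with mmu-miR-150-5p.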

How the data were processed

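Retina and sclera of C57BL/6J mice were profiled on Agilent mouse miRNA arrays, 3 pools of 3 eyes in each of 4 groups. The labels name a mouse number and the methods speak of pools of 3 eyes; the methods were followed. The authors deposited scanner output, in which each value is an intensity with background subtracted by Feature Extraction (version 11.0.1.1 in the file headers) and no normalization between arrays. They also deposited log2 values made in Partek 6.6 by an adjustment of the minimal signal, quantile normalization and log2 transformation, with absent features removed by an unstated rule. These had r = 0.999 with the values computed here over 437 miRNAs (median absolute difference 0.12, median 5.63 on each array) and served as an alternative; whether the minimal signal is a floor or an added constant stays unknown.

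Total gene signals were floored at 0.5, quantile normalized over 696 names and 12 arrays and log2-transformed. The 253 names detected on no array were left out. Tests used limma 3.58.1 in R 4.3.3 with 8 residual degrees of freedom, were two-sided, and were tested on simulated data. Figures used Python 3.11.15, pandas 2.3.3, numpy 2.4.6 and matplotlib 3.10.9. A miRNA undetected throughout a group has a bound, computed after 75th percentile scaling against the higher of its own brightest probe and the dimmest detected miRNA on that array. No fold is given where the bound was under 1.

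The members and marker lists were chosen with earlier results of these data known. Every member is described, and for each member detected on all arrays the 2 other miRNAs with the most similar deviations from the group means are named; of the further leukocyte list, the called miRNAs with the largest changes. The marker lists were of retinal neuron, mesenchymal, muscle, endothelial, erythroid, pigment cell and surface epithelium miRNAs. The study matches control and myopic pools by number, each number shared a slide, and all arrays were scanned in 1 batch. Deviations of same-numbered control and myopic arrays correlated by 0.38, -0.46 and 0.59 in the retina and by -0.14, -0.16 and -0.00 in the sclera, over 246 miRNAs. The 4 groups each kept 1 slide position throughout, and group and position cannot be told apart. Alternatives changed the scaling, the minimal signal, the filter, the background correction, the probe summary, the model, the block, the array weights and the arrays included. The number of arrays limits the precision, and p-values measure the spread between pools.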

Additional observations from a re-analysis of the deposited data

Results flagged for a closer look

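mmu-miR-142-3p and mmu-miR-146b-5p had differences of opposite sign in the tissues after quantile normalization, with the myopic retina below the control retina in 3 of 3 pairs of pools and the myopic sclera above the control sclera in 3 of 3 pairs. The difference between the responses was -1.81 for mmu-miR-142-3p (log2, 95% interval -3.47 to -0.15, limma, adjusted p = 0.38) and -2.69 for mmu-miR-146b-5p (95% interval -6.93 to 1.55, adjusted p = 0.427), and neither passed the test. With probe signals summed without the detection rule and 75th percentile scaling these were -0.66 and -0.04. With 75th percentile scaling of the total gene signals the myopic retina of pool 2 was not lower for mmu-miR-142-3p (3.32 against 3.27). In pool 3 the differences were -2.95 and -6.73, in pool 2 -1.67 and -1.16 and in pool 1 -0.81 and -0.20, with control sclera 3, where mmu-miR-146b-5p was not detected, in the first of these.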

How the results depend on the processing

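The lower level of mmu-miR-223-3p in the retina was called under all 26 settings run for each tissue comparison, and those of mmu-miR-142-3p and mmu-miR-146a-5p under 25 of 26, the exception being the normexp background correction with an offset of 50, which left 1 member called in each tissue comparison. That offset exceeds every retinal signal of these 3 members. Probe signals without the detection rule and 75th percentile scaling gave 7 calls in myopic eyes, of which mmu-miR-146b-5p (1.30) and mmu-miR-150-5p (1.06) were higher in the retina. The call of mmu-miR-142-5p among them adds no separate support, since it was tested only through its sclera detections. In the retina, array weights gave 4 calls, and leaving out single arrays gave 0 to 3 (3 without control retina 1, 1 without myopic retina 3), beside 14.2%, 12.9% and 1.13% of all miRNAs called lower. For the difference between the responses these were 4 and 0 to 3 (3 without control retina 1), beside 15.8% and 11.5%. Leaving out single arrays gave 3 to 5 calls in control eyes and 4 to 5 in myopic eyes. For the tissue comparisons, shares over all miRNAs are given for the main setting only. They were 23% lower and 27.5% higher in control eyes and 26.4% lower and 32.5% higher in myopic eyes. The member counts of other settings thus have no share of their own setting beside them. mmu-miR-146b-5p was called in control eyes without control sclera 1 (3.82) or 2 (3.78), and mmu-miR-142-5p in myopic eyes without control sclera 2 (adjusted p = 0.033) or myopic sclera 3 (adjusted p = 0.0115). The replicate block (pool number and slide) changed no member's call, with a change of mmu-miR-146a-5p in the retina of -1.35 (adjusted p = 0.114). In the sclera 0 members were called under any of the 27 settings.

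Directions turned only for values that were not called in the main fit, and some of these were called under other settings. In the tissue comparison of myopic eyes they were mmu-miR-150-5p (2 of 26 settings) and mmu-miR-146b-5p (1 of 26). The others were mmu-miR-155-5p in the retina (1 of 27) and, for the difference between the responses, mmu-miR-155-5p (1 of 25) and mmu-miR-146a-5p (2 of 25). The sclera change of mmu-miR-223-3p was -0.13 and -0.049 with 75th percentile scaling over detected and over all names, -0.0069 with the authors' log2 values, -0.014 with quantile normalization within each tissue, -0.17 and -0.027 with probe sums after percentile and quantile scaling, and -0.091 to 0.11 with single arrays left out (lowest without control sclera 1). The probe sums with quantile normalization were chosen after seeing the data. For mmu-miR-150-5p the retina change was 0.23, 0.13 and 0.23 (75th percentile, normexp, probe sums), and the tissue difference in control eyes 0.31, 0.11 and 0.10 (75th percentile, probe sums, array weights). That in myopic eyes was -0.096 with array weights, -0.15 with quantile-normalized probe sums and -0.093 to 0.12 with single arrays left out (below 0 without myopic retina 3, myopic sclera 1 or myopic sclera 3). Its difference between the responses was 0.28 in the main fit (limma, adjusted p = 0.584). It turned under 1 of 25 settings, to -0.20 with array weights, kept its sign under 24, and was called under 0. With 75th percentile scaling it was 0.99 (95% interval 0.31 to 1.67, limma, adjusted p = 0.55). With probe sums it was 0.95 (95% interval 0.20 to 1.69, adjusted p = 0.504). With normexp, mmu-miR-146b-5p stood at 0.076 in the retina, -0.0073 in the sclera and 0.083 for the difference between the responses, and mmu-miR-146a-5p at 0.0068 for the latter. mmu-miR-146b-5p was also at -0.015 in the sclera with probe sums, and its difference in myopic eyes was -0.013 to 0.20 with single arrays left out (below 0 without myopic retina 3). Leaving out single arrays gave mmu-miR-155-5p -2.23 to 0.62 in the retina and -2.00 to 0.85 for the difference between the responses (both above 0 without control retina 2), and -0.38 to 0.041 in the sclera (above 0 without control sclera 3). It was at 0.046 in the sclera with array weights and at 0.047 for the difference between the responses with probe sums. The causes were not tested.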
